A study of Mus musculus with 8 samples.

Results

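The ADAM genes (a disintegrin and metalloprotease) encode membrane proteins with a propeptide, a metalloprotease domain and a disintegrin domain. They were examined in adult mouse testis of 2 genotypes, Ssty2-/- (4 libraries, called knockout here) and WT (4 libraries, wild type). Ssty2 is a multicopy gene of the Y chromosome long arm, and the submitters' title links deletion of its repeats to the sex ratio of the mice. No strain, exact age or pooling of animals is given, nor do the labels say that the libraries come from separate animals, so p-values reflect variation among libraries that may be only technical. Members were all genes with the symbol Adam, a number and at most 1 letter that held at least 20 counts over the 8 libraries. Of 56748 genes in the table, 34 had such a symbol and 33 reached 20 counts. They were sorted by what is known of their expression in mouse into 21 testis-restricted and 12 broadly expressed genes. Broadly expressed here means expressed in tissues outside the testis, and this class includes neuronal and leukocyte ADAMs. The lowest member was Adam28, a gene of lymphocytes and epididymis, with 29 counts in all, and the gene just outside was the epididymal gene Adam7 with 12 counts.

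ADAM proteins act in 2 ways. Members with a complete zinc-binding site can cut the outer part off other membrane proteins, which is called shedding. ADAM10 releases Notch receptors and ADAM17 releases tumour necrosis factor in this way. Members without the site serve in adhesion or as parts of protein complexes. In the mouse testis many ADAM genes are transcribed in meiotic and haploid germ cells. ADAM1B and ADAM2 form fertilin on the sperm surface, and ADAM3 (cyritestin) is needed for sperm to pass from the uterus into the oviduct. ADAM4, ADAM5 and ADAM6 are known from mouse sperm to associate with ADAM2 and ADAM3.

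The coding sequence at the zinc-binding site separates the members by structure, so this stretch is shown for both kinds. In protein terms the site reads histidine, glutamate, any pair, histidine, any pair, glycine, any pair, histidine, aspartate. Capitals mark codons for these 6 fixed residues, 36 bases in all, read 5′ to 3′ from the GENCODE vM21 transcripts of GRCm38. Adam20, Adam24, Adam26a, Adam34 and Adam1b are testis-restricted and Adam10 and Adam9 are broadly expressed. Adam20 and Adam34 are shown because their log2 fold changes were the highest of the family and Adam10 because its own was the lowest.
Adam20: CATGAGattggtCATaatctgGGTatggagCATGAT
Adam34: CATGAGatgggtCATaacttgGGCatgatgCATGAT
Adam26a: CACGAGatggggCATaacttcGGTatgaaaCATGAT
Adam24: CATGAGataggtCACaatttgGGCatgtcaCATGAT
Adam1b: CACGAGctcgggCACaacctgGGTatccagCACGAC
Adam10: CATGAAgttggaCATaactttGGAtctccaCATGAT
Adam9: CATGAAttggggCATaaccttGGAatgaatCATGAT

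In 12 members the complete site was not found. For most of these the stretch that aligns with the site of Adam24 is known, and here capitals mark only the codons that still encode the fixed residue. It is shown for the sperm surface genes Adam2, Adam3, Adam5 and Adam32, which had the highest levels of the family, and for Adam4 and Adam29.
Adam2: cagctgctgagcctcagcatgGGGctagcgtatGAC
Adam3: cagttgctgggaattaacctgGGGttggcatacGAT
Adam5: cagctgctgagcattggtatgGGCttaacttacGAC
Adam32: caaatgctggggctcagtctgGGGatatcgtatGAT
Adam4: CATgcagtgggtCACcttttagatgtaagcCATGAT
Adam29: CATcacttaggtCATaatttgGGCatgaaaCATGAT
Adam2, Adam3, Adam5, Adam32 and Adam18 each kept 2 of the 6 residues, Adam4 kept 4 and Adam29 kept 5. Among the testis-restricted members, 12 of 21 had the complete site, against 9 of 12 broadly expressed ones. The broadly expressed genes without it were Adam11, Adam22 and Adam23, which are known as neuronal ADAMs without protease activity. The coding sequence lay in 1 exon in 16 testis-restricted members and in no broadly expressed member. The 5 testis-restricted members with several coding exons, Adam2, Adam3, Adam5, Adam18 and Adam32, all lacked the complete site.

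Sequencing depth ran from 18036708 to 22639737 counts in knockout and from 18763650 to 24415587 in wild type. The deleted gene Ssty2 had 0 counts in each knockout library, against 56, 78, 83 and 45 counts in the wild-type libraries. Sly, also Y-linked and present in many copies, had 1 count over the knockout group, against 796 over the wild-type group. Levels are CPM, counts per 1000000 library counts after scaling with TMM, edgeR's trimmed mean method. Fold changes are knockout over wild type, tested by edgeR's quasi-likelihood test with Benjamini-Hochberg adjustment over all 21952 tested genes. A gene was called at an adjusted p under 0.05.

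The testis-restricted ADAM genes were higher in knockout testis and the broadly expressed ones were not. Of 21 testis-restricted members, 20 rose and 0 fell with TMM scaling, while 13 rose and 0 fell when library totals were used. Of 11 tested broadly expressed members, 0 rose and 3 fell, or 6 with library totals. Of all tested genes, 53.5% were called, 26.2% higher and 27.4% lower, so the share of broadly expressed members that fell, 27.3%, was close to that of all genes. With library totals, 17.5% of all tested genes were called higher and 37.6% lower, so that 31.8% of all calls were higher, against 48.9% with TMM. The median log2 fold change was 0.37 over the testis-restricted members, -0.24 over the broadly expressed ones and -0.01 over all tested genes. Library totals moved the median of all genes to -0.15. A change of scaling shifts all genes by nearly the same amount. The testis-restricted median relative to that of all genes, 0.37 under both scalings, could therefore hardly differ and is no separate evidence. In whole testis, more cells of a type and more RNA per cell cannot be told apart.

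In the same libraries, 12 of 13 round spermatid markers and 10 of 10 elongating spermatid markers rose. Of all tested genes, 26.2% were called higher and 27.4% lower. The summed level of the round spermatid markers was 3618 to 3707 CPM in knockout and 2308 to 2590 CPM in wild type. Of the spermatocyte markers, 0 of 12 rose and 5 fell (41.7%, against 27.4% of all tested genes). Their sums were 1445 to 1688 CPM in knockout and 1659 to 2001 CPM in wild type. Markers of somatic cells fell: 11 of 12 for Sertoli cells (1146 to 1299 CPM in knockout, 1740 to 1946 CPM in wild type) and 9 of 9 for Leydig cells (964.5 to 1078 CPM in knockout, 1846 to 2132 CPM in wild type). The sums of the elongating spermatid markers were 22210 to 25440 CPM in knockout and 14180 to 17460 CPM in wild type. Of the spermatogonial markers 1 of 10 rose and 9 fell (289 to 317 CPM in knockout, 441 to 553 CPM in wild type). Of the myoid, endothelial and leukocyte markers, 6 of 7, 3 of 6 and 3 of 7 fell (85.7%, 50.0% and 42.9%). Of the 9 epididymal markers only 2 could be tested, and both fell. No marker of these lists was at 0 in all libraries. Their part in the ADAM results was not tested.

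**Figure D1:**
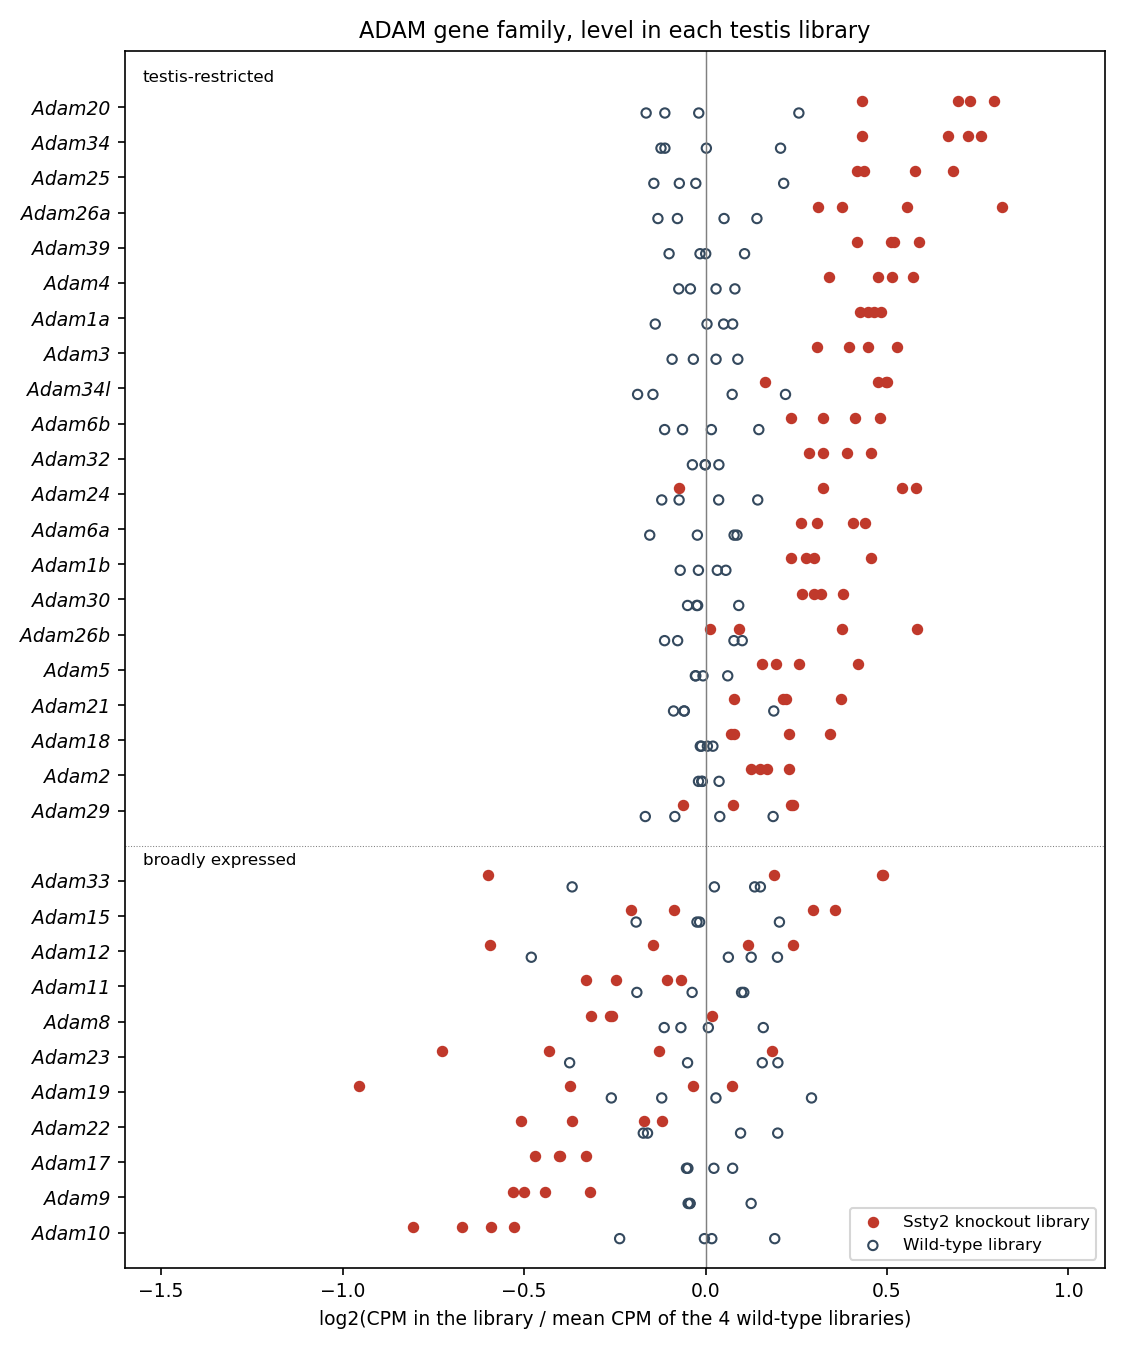
Each row is 1 ADAM gene; the horizontal axis is the log2 of its CPM in a library over the mean of the 4 wild-type libraries, with filled red points for the 4 knockout libraries and open points for the 4 wild-type libraries. The testis-restricted genes in the upper block lie to the right in knockout, with 16 of 21 showing no overlap, and Adam17, Adam9 and Adam10 at the bottom lie to the left.

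In 16 of the 21 testis-restricted members, every knockout library lay above every wild-type library, against 22.7% of all tested genes. In 3 of 11 broadly expressed members every knockout library lay below every wild-type library, against 24.0% of all tested genes, or 46.7% for both directions together. The 21 testis-restricted members together held 5602, 6115, 5539 and 5798 CPM in the knockout libraries and 4551, 4423, 4799 and 4447 CPM in the wild-type libraries. The broadly expressed members together held 123 ± 1.98 CPM in knockout and 156 ± 5.66 CPM in wild type (SD, n = 4 each). The testis-restricted genes therefore made up nearly all ADAM transcripts of both genotypes.

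Levels per exon length differed widely within the family. Adam3 reached 515 ± 33.2 CPM per kb of exon in knockout and 385 ± 20.8 in wild type (SD, n = 4 each). Adam5 reached 478 ± 39.8 in knockout and 398.5 ± 11.8 CPM per kb in wild type. The order of the means of Adam3 and Adam5 thus differed between the genotypes. Both genes come from the same libraries, so these SDs do not measure that difference, which was not tested. Adam32 followed at 243 ± 12.6 in knockout and 189 ± 3.90 CPM per kb in wild type, then Adam2 at 172 ± 5.34 in knockout and 153 ± 2.73 CPM per kb in wild type. Adam3 and Adam5 supplied 52.2% ± 1.51 of the summed CPM of the testis-restricted members in knockout and 52.2% ± 0.597 in wild type. Adam10 was the highest of the broadly expressed genes, at 4.97 ± 0.406 in knockout and 7.78 ± 0.932 CPM per kb in wild type. The lowest tested members in wild type, Adam33, Adam12, Adam19 and Adam23, lay between 0.185 and 0.306 CPM per kb there. The exon length of Adam1a includes a long annotated transcript that runs through neighbouring genes, so its value per kb is understated.

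**Figure D2:**
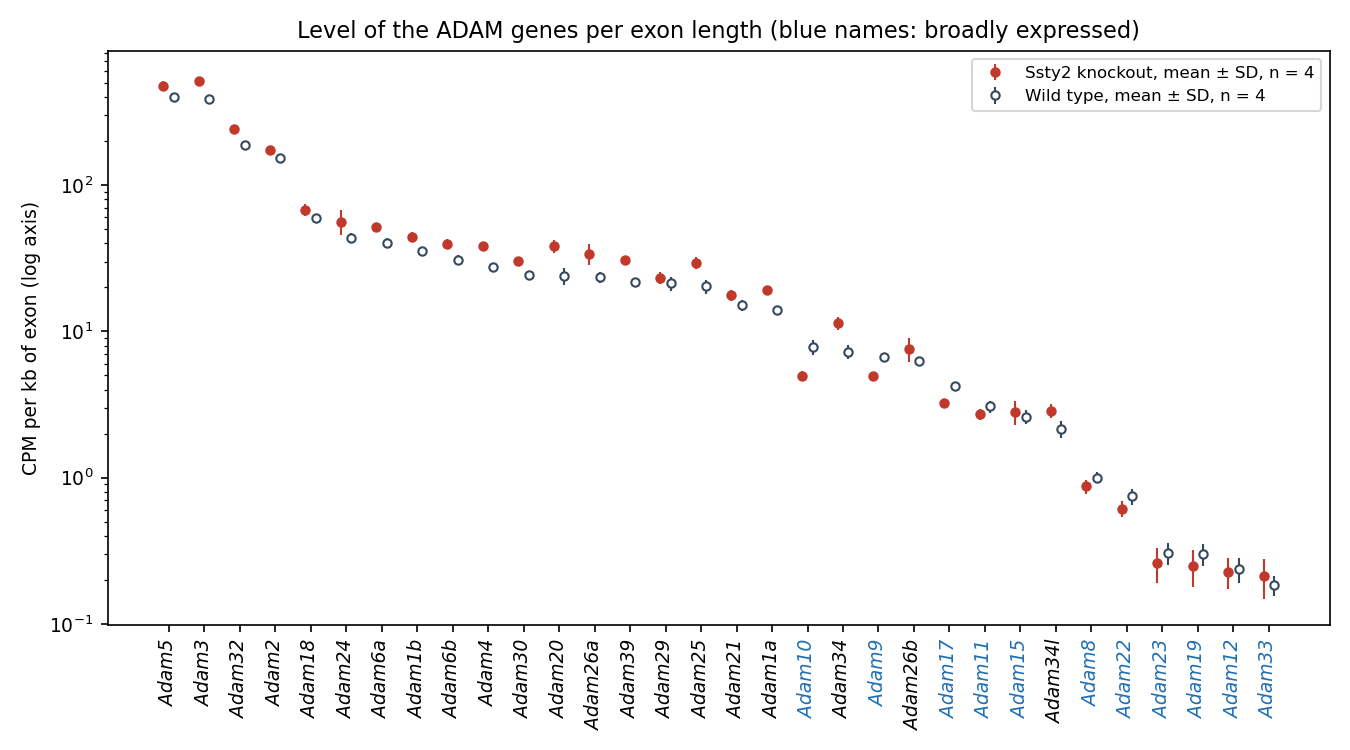
Mean level of each tested ADAM gene in CPM per kb of exon on a log axis, ordered by wild type, with knockout as filled points left of wild type as open points; bars are SD of 4 libraries. Black names are testis-restricted and blue names broadly expressed, and the 18 highest genes in wild type are all testis-restricted.

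The 3 fertilin genes rose. Adam2 (ENSMUSG00000022039, chromosome 14), the beta subunit, had 464, 483, 450 and 458 CPM in knockout and 407, 410, 423 and 409 CPM in wild type. Its rise was small but free of overlap, at 0.17 on the log2 scale (SE 0.0465, adjusted p = 0.0058), and it was no longer called with library totals (0.03, adjusted p = 0.624). Adam1b (chromosome 5), the alpha subunit found on sperm, had 140, 163, 146 and 144 CPM in knockout and 121, 117, 123 and 113 CPM in wild type (log2 fold change 0.32, adjusted p = 0.000251). Adam1a, its neighbour, encodes the alpha subunit that pairs with ADAM2 in the endoplasmic reticulum of germ cells. It had 145, 144, 147 and 141 CPM in knockout and 109, 95.7, 111 and 106 CPM in wild type, and the knockout libraries were close together above all wild-type ones (0.46, SE 0.0563, adjusted p = 6.18e-06). Of the 31-base words of Adam1b, 33.4% also occur in Adam1a. Of the words of Adam1a, 78.4% occur in other genes, 63.1% in Gm42878. Annotated exons of Adam1a overlap Gm42878 and Mapkapk5 on the same strand and Tmem116 on the opposite strand. How reads that map to more than 1 of these genes were counted is not given.

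All 4 genes of the cyritestin group rose, without overlap between the genotypes. Adam3 (ENSMUSG00000031553, chromosome 8) had 1489, 1633, 1400 and 1543 CPM in knockout and 1155, 1106, 1204 and 1062 CPM in wild type. Its log2 fold change was 0.42 (SE 0.0567, adjusted p = 1.41e-05). Adam32 had 740, 774, 689 and 707 CPM in knockout and 565, 551, 579 and 564 CPM in wild type. Its wild-type libraries were tightly grouped and all lay below the knockout libraries (0.37, SE 0.0498, adjusted p = 1.64e-05). Adam5 had 1428, 1670, 1388 and 1492 CPM in knockout and 1241, 1224, 1301 and 1223 CPM in wild type. Knockout replicate 2 stood highest, and the log2 fold change was 0.26 (adjusted p = 0.00117), or 0.12 and not called with library totals (adjusted p = 0.0672). Adam18, which encodes another protein of the sperm surface, had 166, 179, 148 and 149 CPM in knockout and 140, 140, 143 and 142 CPM in wild type. Its rise of 0.19 (adjusted p = 0.0183) was not called without knockout replicate 2 (0.13, adjusted p = 0.0708), without wild-type replicate 2 (adjusted p = 0.0507) or with library totals (0.04, adjusted p = 0.567). None of these 4 genes shared a 31-base word with another gene, so their counts do not depend on near copies, although Adam3 overlaps Gm45528 on the opposite strand.

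Adam4, Adam6a and Adam6b on chromosome 12 also rose, each without overlap. Their products join complexes with ADAM2 and ADAM3 on mouse sperm. Adam4 had 95.1, 102, 97.7 and 86.6 CPM in knockout and 69.8, 65.0, 72.4 and 66.5 CPM in wild type (log2 fold change 0.48, SE 0.0626, adjusted p = 1.12e-05). Adam6a had 124, 137, 140.1 and 128 CPM in knockout and 109, 93.0, 110 and 102 CPM in wild type (0.36, adjusted p = 0.000216). Adam6b had 92.1, 104, 109 and 97.8 CPM in knockout and 79.0, 72.3, 86.5 and 74.8 CPM in wild type (0.37, adjusted p = 0.000321). Adam6a and Adam6b shared 40.6% and 40.8% of their words with each other. Adam4 shared 24.0% of its words with Gm4787, an Adam4-like gene outside the symbol rule, which summed to 21509 counts over the knockout libraries and 18045 over the wild-type libraries and had a log2 fold change of 0.43 (adjusted p = 8.68e-06).

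The 11 other testis-restricted genes, the testases and their relatives, each have 1 coding exon. Of them 10 rose and 0 fell, with a median log2 fold change of 0.41. Their products are known from mouse as sperm or testis ADAMs, and ADAM24 (testase 1) has been linked in mouse to the block against entry of further sperm into the egg. Adam20 (ENSMUSG00000046282) had 83.9, 101, 103 and 108 CPM in knockout and 55.5, 57.6, 74.4 and 61.4 CPM in wild type. This was the highest log2 fold change of the family, 0.67 (SE 0.0906, adjusted p = 1.56e-05), a fold of 1.59. Adam34 had 25.3, 29.8, 31.8 and 30.97 CPM in knockout and 18.8, 17.2, 21.7 and 17.4 CPM in wild type (0.65, SE 0.0932, adjusted p = 2.66e-05). In both genes knockout replicate 1 was the lowest of the knockout libraries and still above all wild-type libraries.

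Adam25, also known as testase 2, had 71.1, 72.2, 85.5 and 79.5 CPM in knockout and 50.7, 48.3, 61.9 and 52.3 CPM in wild type (log2 fold change 0.53, adjusted p = 4.87e-05). Adam26a, or testase 3, had 72.6, 76.0, 86.0 and 103 CPM in knockout and 53.5, 55.5, 64.6 and 60.7 CPM in wild type (0.53, adjusted p = 0.00022). Adam39 had 76.2, 81.8, 81.3 and 85.8 CPM in knockout and 53.3, 56.5, 61.5 and 57.1 CPM in wild type (0.51, adjusted p = 5.80e-06). The genotypes did not overlap for any of the 3. Adam30, on chromosome 3, rose by 0.32 on the log2 scale without overlap (adjusted p = 0.000161). Adam24 averaged 162 ± 31.4 CPM in knockout and 126 ± 10.4 CPM in wild type (SD, n = 4 each; 0.36, adjusted p = 0.00892), with knockout replicate 2 inside the wild-type range and no call with library totals (adjusted p = 0.0931).

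The remaining testases rested on fewer reads or smaller changes. Adam34l averaged 6.65 ± 0.710 CPM in knockout and 4.98 ± 0.668 CPM in wild type (SD, n = 4 each; log2 fold change 0.41, adjusted p = 0.0191). It was not called without wild-type replicate 1 (adjusted p = 0.0597), without wild-type replicate 2 (0.0637) or with library totals (0.111). Adam21 averaged 51.3 ± 4.30 CPM in knockout and 43.9 ± 4.09 CPM in wild type (SD, n = 4 each; 0.23, adjusted p = 0.0232). Its call ended with library totals (adjusted p = 0.396), without knockout replicate 3 (0.0861) and without wild-type replicate 1 (0.0625), 2 (0.0772) or 4 (0.0691). Adam26b averaged 18.8 ± 3.48 CPM in knockout and 15.4 ± 1.153 CPM in wild type (SD, n = 4 each; 0.28, adjusted p = 0.0495). It missed the threshold in 9 of 14 alternatives, including those without knockout replicate 3 (adjusted p = 0.114) or 4 (0.199) and without wild-type replicate 1 (0.112), 2 (0.135), 3 (0.0617) or 4 (0.054). Adam29 had 63.3 ± 6.21 CPM in knockout and 58.0 ± 6.25 CPM in wild type and did not pass (0.13, adjusted p = 0.214), and with library totals its log2 fold change was -0.02.

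Many of these single-exon genes are close copies of each other. Adam25 and Adam39 shared 41.3% and 41.1% of their words, Adam26a and Adam26b 39.9% and 40.1%, and Adam20 shared 36.3% with Adam39. Adam34 and Adam34l shared 27.1% and 29.9% of their words with Gm5347, a gene outside the symbol rule. Gm5347 was not called (log2 fold change 0.27, adjusted p = 0.14). How reads common to such copies were assigned is not given, so their single values are uncertain. Of the 9 testis-restricted members with under 1% of shared words, 8 rose, with a median log2 fold change of 0.26, and all 12 with more sharing rose, with a median of 0.47. By structure, the 12 testis-restricted members with the complete zinc-binding site had a median of 0.43 and the 9 without it 0.36. The 16 with 1 coding exon had a median of 0.39 and the 5 with several 0.26. These splits overlap in membership and the differences were not tested.

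On chromosome 8 the members lie in 3 clusters and 1 further gene. In GENCODE vM21 order, the first cluster runs Adam18, Adam3, Adam5, Adam32 and Adam9, with 1 snoRNA, 1 snRNA and the gene model Gm45528 between. Adam9, at the end of the row, fell while the other 4 rose. The second cluster holds Adam24, Adam25, Adam20 and Adam39, and all 4 rose. The remaining cluster holds Adam26b, Adam26a, Adam34l and Adam34, in 4 adjacent places, and all 4 rose, against 26.2% of all tested genes. In Adam26b and Adam34l the genotypes overlapped, and their calls were lost in 9 and 3 of 14 alternatives. The 4 genes of this cluster share 40.46% to 54.05% of their words with other genes. Adam25, Adam20 and Adam39 share 42.36% to 51.04%. The rises of such near copies cannot be taken as separate observations. The other gene, Adam29, lies apart from the 3 clusters.

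**Figure D3:**
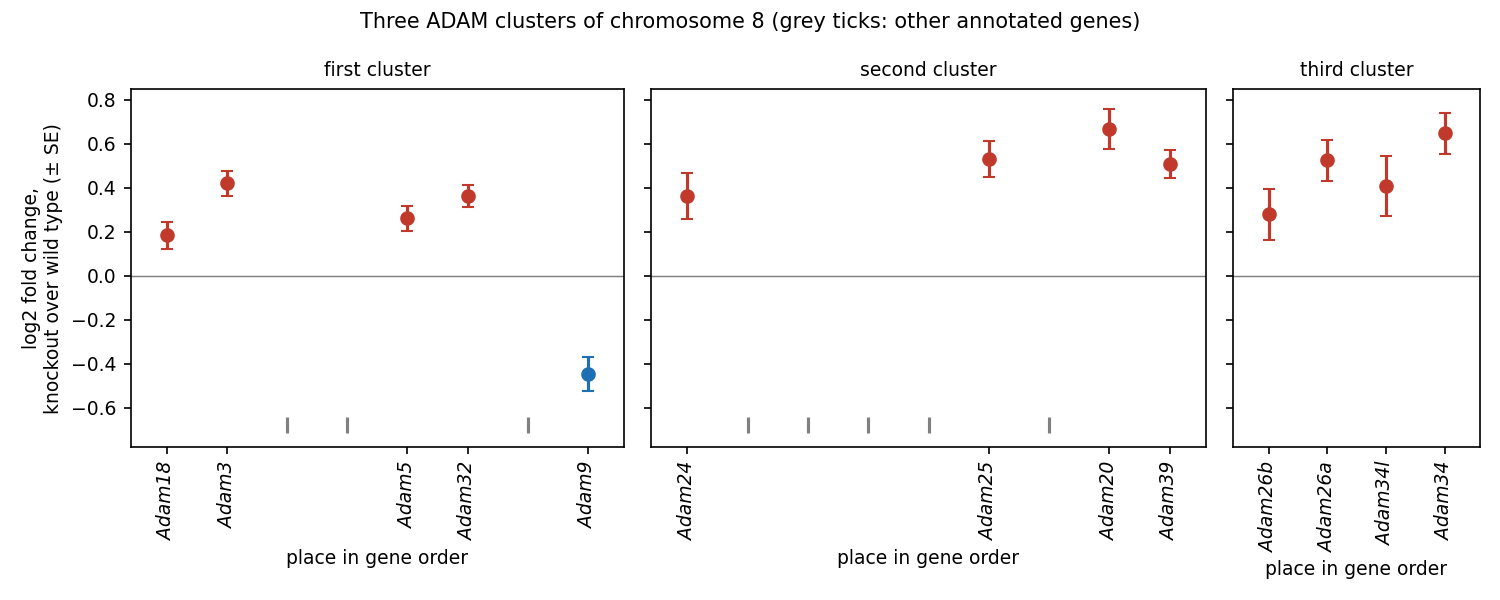
Log2 fold change of knockout over wild type (± SE) for the ADAM genes of the 3 chromosome 8 clusters, by place in gene order; grey ticks mark other annotated genes. Adam9, in blue, is the only one below 0 (-0.44), beside Adam32 at 0.37.

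Among the broadly expressed genes the 3 members that fell encode proteases with a complete zinc-binding site. Adam10 (ENSMUSG00000054693, chromosome 9) had 21.9, 25.4, 24.0 and 26.5 CPM in knockout and 32.4, 43.6, 38.7 and 38.1 CPM in wild type. This was the lowest log2 fold change of the family, -0.65 (SE 0.09, adjusted p = 1.94e-05), without overlap. Adam9 had 19.1, 20.3, 22.1 and 19.5 CPM in knockout and 26.8, 30.1, 26.7 and 26.8 CPM in wild type (-0.44, SE 0.0775, adjusted p = 0.000164). Adam17 had 22.01, 23.05, 23.1 and 24.3 CPM in knockout and 30.98, 32.1, 29.4 and 29.5 CPM in wild type (-0.40, SE 0.07, adjusted p = 0.00017). All 14 alternatives kept these 3 calls. In Adam17, 6.98% of the words also occur in antisense to other transcripts, mostly Iah1, and whether the counting used strand is not given.

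The other broadly expressed members did not pass. Adam11, a neuronal ADAM, had 14.7, 16.6, 16.2 and 13.9 CPM in knockout and 18.7, 15.3, 18.7 and 17.0 CPM in wild type, which overlapped (log2 fold change -0.18, adjusted p = 0.119). It was called lower without wild-type replicate 2 (-0.25, adjusted p = 0.0452) and with library totals (-0.32, adjusted p = 0.00821). Adam22, a neuronal receptor of LGI proteins, had 9.502, 7.51, 8.28 and 9.84 CPM in knockout and 11.4, 9.49, 12.3 and 9.57 CPM in wild type (-0.29, adjusted p = 0.0567). It was called lower in 7 of 14 alternatives, including those without knockout replicate 1 (adjusted p = 0.046) or 4 (0.0379) and without wild-type replicate 2 (0.0365) or 4 (0.0452). Adam15 had 20.5, 13.9, 15.1 and 19.7 CPM in knockout and 15.9, 14.04, 18.5 and 15.8 CPM in wild type (0.10, adjusted p = 0.501). Of its words, 18.2% lie antisense to another transcript. Adam8, a leukocyte ADAM, and Adam12, Adam19, Adam23 and Adam33 had log2 fold changes from -0.25 to 0.18, with mean levels of at most 4.66 CPM in knockout and 5.49 CPM in wild type. Adam8 was called lower with library totals (-0.34, adjusted p = 0.0499). Adam28 was too low to test, with 6, 2, 0 and 0 counts in knockout and 7, 5, 6 and 3 counts in wild type. Adam7, just under the limit, had 3, 0, 0 and 0 counts in knockout and 2, 4, 1 and 2 counts in wild type.

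Ratios of 2 members within a library do not depend on scaling between libraries. Of 7 pairs compared, 3 did not overlap between the genotypes. Adam3 over Adam2 was 3.21, 3.38, 3.11 and 3.37 in knockout and 2.84, 2.70, 2.84 and 2.60 in wild type. Adam9 over its neighbour Adam32 was 0.0279 ± 0.00288 in knockout and 0.0489 ± 0.00389 in wild type (SD, n = 4 each), a log2 difference of -0.81. Adam26a over Adam26b was 4.52 ± 0.259 in knockout and 3.80 ± 0.158 in wild type (SD, n = 4 each). Each of the 3 had an exact two-sided permutation p of 0.0286, the smallest that 4 against 4 libraries allow. The adjusted p of each was 0.0667 over the 7 pairs, so none passed. A pair could pass only if most of the 7 reached that smallest value, so this outcome says little. The pairs were chosen after the data were seen, with Adam9 already known to fall and Adam32 to rise. Adam10 over Adam17 was 1.06 ± 0.0498 in knockout and 1.25 ± 0.141 in wild type (SD, n = 4 each; exact permutation p = 0.0857). Adam1a over Adam1b was 0.979 ± 0.0688 in knockout and 0.888 ± 0.0495 in wild type (exact permutation p = 0.114), and Adam34 over Adam34l was 4.50 ± 0.875 in knockout and 3.79 ± 0.403 in wild type (exact permutation p = 0.229). Adam6a over Adam6b was 1.315 ± 0.0261 in knockout and 1.325 ± 0.0555 in wild type (exact permutation p = 0.771).

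**Figure D4:**
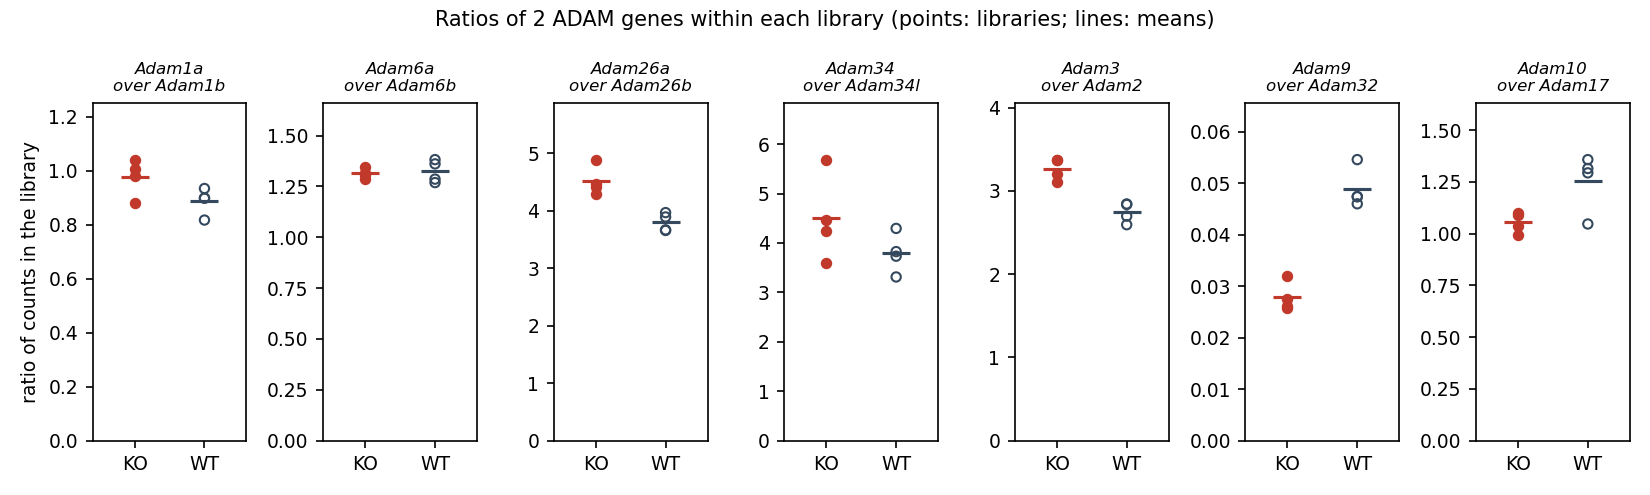
Ratio of the counts of 2 ADAM genes in each library, 1 panel a pair, with the 4 knockout libraries left of the 4 wild-type libraries and lines at the means; each axis starts at 0. Adam26a over Adam26b, Adam3 over Adam2 and Adam9 over Adam32 do not overlap between the genotypes.

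Libraries differed within a genotype in a way that many members shared. Wild-type replicate 3 was the highest wild-type library for 19 of the 21 testis-restricted members. In knockout, replicate 2 was highest for all 5 members with several coding exons, while among the 16 with 1 coding exon it was highest for 4, replicate 3 for 6 and replicate 4 for 6. The broadly expressed members had no such common library in wild type, with replicates 2 and 3 highest for 4 of 11 each.

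Genes that fold, process or carry sperm ADAMs moved in both directions. Of 18 listed genes, 10 rose (55.6%, against 26.2% of all tested genes) and 5 fell (27.8%, close to the 27.4% of all tested genes). Clgn, the chaperone calmegin that fertilin assembly needs, averaged 843 ± 29.4 CPM in knockout and 673.5 ± 19.4 CPM in wild type (SD, n = 4 each; log2 fold change 0.32, adjusted p = 3.51e-05). Pmis2, needed for ADAM3 on mouse sperm, averaged 73.8 ± 6.42 CPM in knockout and 49.9 ± 3.22 CPM in wild type (0.56, adjusted p = 8.40e-06), and Lypd4 rose by 0.39 (adjusted p = 1.04e-05). Tex101, a surface protein of germ cells that ADAM3 also needs, fell, with 160 ± 13.3 CPM in knockout and 226 ± 10.8 CPM in wild type (-0.50, adjusted p = 6.78e-06). The general chaperone genes Canx and Calr fell by 0.23 and 0.14 on the log2 scale.

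Of 7 propeptide convertase genes, whose products cut the propeptide off ADAM proteins, 1 rose and 3 fell. These shares were 14.3% and 42.9%, against 26.2% and 27.4% of all tested genes. The one that rose was Pcsk4, the convertase of germ cells and sperm, with 220.1 ± 14.04 CPM in knockout and 165 ± 17.0 CPM in wild type (SD, n = 4 each; log2 fold change 0.41, adjusted p = 0.000144). Furin, the widely expressed convertase, averaged 15.3 ± 1.05 CPM in knockout and 30.6 ± 1.23 CPM in wild type (-1.002, adjusted p = 4.80e-08). Pcsk6 and Pcsk5 fell by 0.52 and 0.80 on the log2 scale.

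Of 5 inhibitor genes, 4 fell (80.0%, against 27.4% of all tested genes) and 0 rose (against 26.2%). Timp2 averaged 154 ± 18.7 CPM in knockout and 289 ± 17.3 CPM in wild type (SD, n = 4 each; log2 fold change -0.90, adjusted p = 9.25e-08). Timp3, whose product inhibits ADAM10 and ADAM17, averaged 14.4 ± 1.99 CPM in knockout and 23.2 ± 2.66 CPM in wild type (-0.68, adjusted p = 6.11e-05). Reck, a membrane-anchored inhibitor, fell by 0.33 (adjusted p = 0.00617). Timp1 had a log2 fold change of -0.86 at 0.750 ± 0.262 CPM in knockout and 1.36 ± 0.336 CPM in wild type (adjusted p = 0.0229), and was not called with DESeq2 (adjusted p = 0.0509), without knockout replicate 3 (0.08) or without wild-type replicate 2 (0.0576) or 4 (0.0815).

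Of 11 tested genes for trafficking of the sheddases, 1 rose (9.1%, against 26.2% of all tested genes) and 7 fell (63.6%, against 27.4%). Tspan17 and Tspan14, tetraspanins that guide ADAM10, fell by 0.92 and 0.85 on the log2 scale (adjusted p = 2.85e-06 and 1.70e-05), and Sh3gl2 fell by 0.81. Pacs2, which encodes a sorting protein linked to ADAM17, rose by 0.47 (adjusted p = 4.89e-06). Of 28 tested substrate and ligand genes, 3 rose (10.7%, against 26.2% of all tested genes) and 15 fell (53.6%, against 27.4%). Egf averaged 3.96 ± 0.766 CPM in knockout and 12.8 ± 0.736 CPM in wild type (SD, n = 4 each; -1.70, adjusted p = 6.03e-08). Kitl, the stem cell factor of Sertoli cells, averaged 18.4 ± 1.53 CPM in knockout and 34.0 ± 4.11 CPM in wild type (-0.89, adjusted p = 1.04e-06), and App and Vcam1 fell by 0.61 and 1.13. Of 10 tested ADAMTS and matrix metalloprotease genes, 2 rose and 6 fell. The shares over all tested genes were 26.2% higher and 27.4% lower. Mmp14 (-0.71), Mmp2 (-1.77) and Adamts5 (-0.57) were lower and Adamts20 (0.74) was higher.

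**Figure D5:**
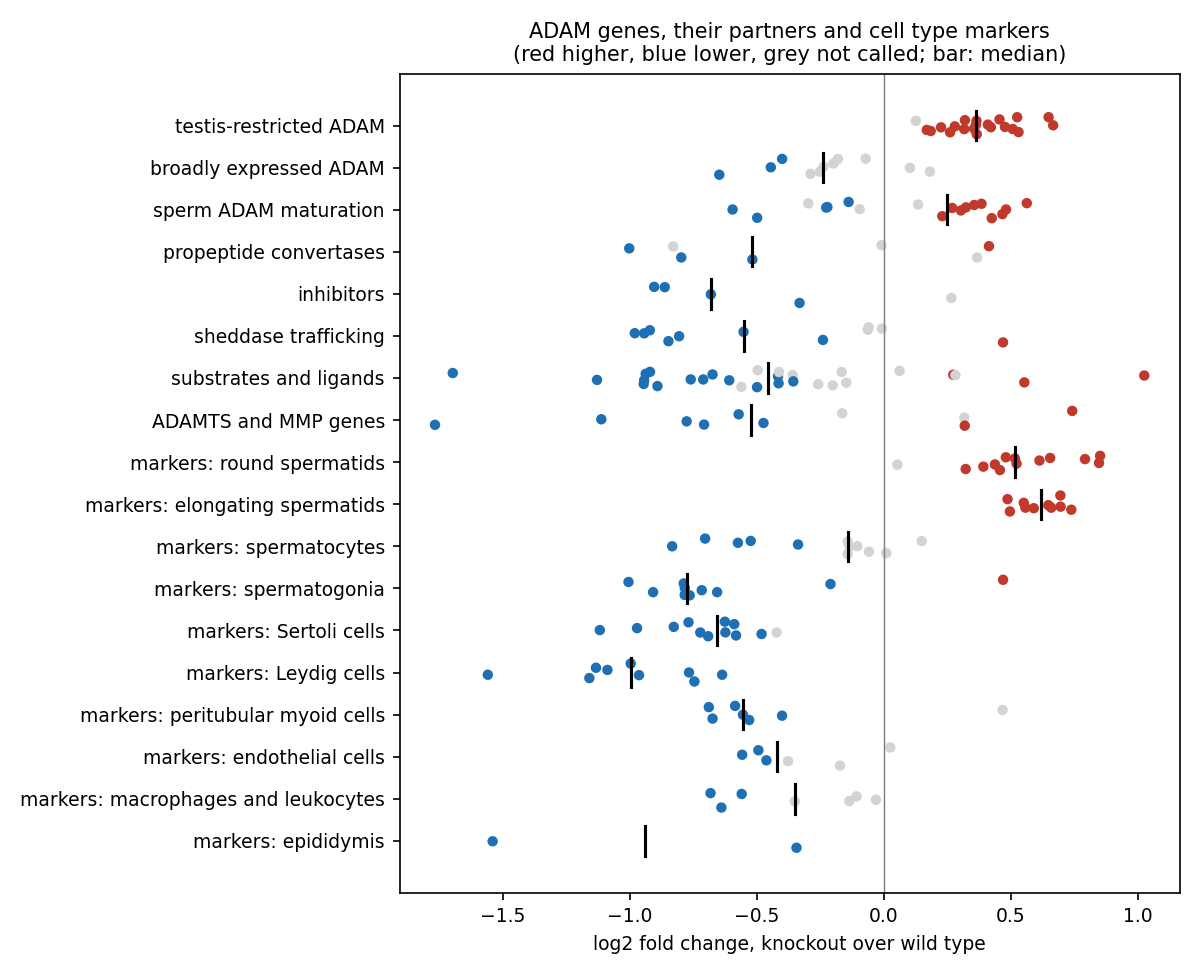
Log2 fold change of knockout over wild type for the genes of each list, 1 point a gene (red called higher, blue called lower, grey not called), with a bar at the list's median. The testis-restricted ADAM genes (median 0.37) lie on the side of the round and elongating spermatid markers (0.52 and 0.62). The broadly expressed ADAM genes (-0.24) lie on the side of the spermatocyte (-0.14), spermatogonial (-0.77) and somatic markers.

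Promoter sequence from RefSeq (GRCm38.p6, 250 bases before to 50 after the start) was on hand for 11 promoters of testis-restricted and 9 of broadly expressed members. Members without one included Adam2, Adam3, Adam5, Adam18 and Adam32, and several of the 9 were alternative promoters of Adam19. The cyclic AMP response element TGACGTCA, searched on both strands, was found in 0 of the 11 and 0 of the 9, and in 1.79% of all 32851 promoters. Its core TGACG was found in 0 of the 11, in 1 of the 9 (Adam10) and in 20.8% of all promoters.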

How the data were processed

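Total RNA of adult testis was made into TruSeq libraries, per the labels' protocols. The authors deposited raw counts per Ensembl gene, not normalized; the tools they name in the submitters' processing notes are STAR, featureCounts, FastQC, Trimmomatic and DESeq2, with build mm39. For these, version, annotation, strand setting and treatment of multiply mapping reads were not given in the sources used here, so counts of near copies and antisense genes are uncertain.

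Names, exons and gene order came from GENCODE vM21 (GRCm38), without coordinates; 33 ADAM symbols matched directly and Adam34l through a RefSeq synonym. Counts were tested with edgeR 4.0.16 in R 4.3.3 (filterByExpr, minimum count 10, minimum total 15; TMM; genotype as the only term), after a check on simulated counts. The SE is the log2 fold change over the root of the F statistic. Alternatives were library totals, upper-quartile scaling, DESeq2 1.42.0, no filter, 1 CPM in 4 libraries, each library left out, and the replicate number as a block. Within-library ratios, added after seeing the data, were compared with exact permutation tests. Word sharing used 31-base words of the annotated transcripts. Zinc-binding sites were sought in translated coding sequences.

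Members and lists were chosen with earlier results of these data known. All members are named; values in every library are given for the fertilin, cyritestin and Adam4 groups, called members with a mean log2 CPM of at least 1 and a change of at least 0.5, and the 6 highest broadly expressed members. Up to 4 partner genes per list with the smallest p are named, and Canx and Calr were added after their values were seen. The spread over 4 libraries a group sets the precision, and no library pair agreed within sampling noise.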

Additional observations from a re-analysis of the deposited data

Results flagged for a closer look

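In 4 of 64 groups of 4 libraries, 1 library lay far from the others, where chance flags about 1 in 20 groups. Adam34l had 5.59 CPM in knockout replicate 3, against 6.93 to 7.04 in the other knockout libraries. Adam21 had 50.0 CPM in wild-type replicate 3, against 41.3 to 42.2 in the other wild-type libraries. Adam8 had 4.70 CPM in knockout replicate 2, against 3.73 to 3.88 in the others of its group. Adam9 had 30.1 CPM in wild-type replicate 2, against 26.7 to 26.8 in the others of its group.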

How the results depend on the processing

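With library totals 13 members were higher and 6 lower, all 6 broadly expressed, against 20 and 3 with TMM; of all tested genes 17.5% were then called higher and 37.6% lower. The median log2 fold changes were then 0.13 over all members, 0.22 over the testis-restricted and -0.38 over the broadly expressed ones. With upper-quartile scaling they were 0.34, 0.44 and -0.16. The testis-restricted genes that lost their call with library totals were Adam2, Adam5, Adam18, Adam21, Adam24, Adam26b and Adam34l. Leaving out 1 library gave 16 to 20 testis-restricted members higher and 3 to 5 broadly expressed members lower, the 5 without wild-type replicate 2. Over these, the median was 0.32 to 0.41 for testis-restricted and -0.33 to -0.16 for broadly expressed members, -0.33 without knockout replicate 1 and -0.16 without knockout replicate 4. The sign changed for Adam29 (-0.0155) and Adam15 (-0.0385) with library totals and for Adam12 with upper-quartile scaling (0.00067) and without knockout replicate 1 (-0.201 to 0.0675 over the libraries left out); none of these was called. Over the 14 alternatives of each tested member, 411 values kept direction and call, 23 lost the call, 10 gained one and 4 changed sign. The cause was not tested. Deviations of same-numbered knockout and wild-type libraries correlated at 0.15, 0.0609, 0.091 and 0.0176. Knockout replicates 1, 2 and 3 each correlated best with their own number, and knockout replicate 4 with wild-type replicate 2 (0.0571). The numbers were not taken as pairs in the main fit, and whether they pair the libraries cannot be told from these values. With the replicate block 20 members were higher and 4 lower, the added call being Adam22 (adjusted p = 0.0459). Depth limits Adam28 and Adam33.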
